A study of Mus musculus with 2 samples.

Results

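The expression of 40 genes of the cell cycle and of DNA replication was compared between a teratoma library of E14 cells and another of E14-Sox2TA/WT cells. The 40 were found by gene symbol among the 45777 genes of the deposited table, and all 40 were present. They comprise 16 genes of DNA replication and of its licensing, 18 genes of mitosis, the 3 D-type cyclins and 3 inhibitors of cyclin-dependent kinases (CDKs). All 40 reached a TPM of 10 in E14, in E14-Sox2TA/WT or in both (TPM is a level per transcript length, scaled to the same total in both).

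E14 is a mouse embryonic stem cell (ESC) line. In the E14-Sox2TA/WT line, 1 allele of Sox2 bears T258A, introduced with CRISPR/Cas9, and the other is wild type, which removes a site of O-GlcNAc modification from part of the Sox2 protein. The edited cells were sorted by GFP and derived from single cells. Both lines were cultured with serum and leukemia inhibitory factor. The edited clones were also kept with the inhibitors PD0325901 and CHIR99021, which were removed before the experiments. The comparison thus also carries whatever else sets the edited line apart. Cells of each line were inoculated under the skin of BALB/c-nu mice in Matrigel, and the tumours they formed were teratomas, mixtures of differentiated tissue and remaining stem cells with blood vessels and macrophages of the host. The labels give teratoma as the tissue of both libraries, while their extraction text speaks of an ESC line, and whether a library pools tumours of several mice is not stated. With 1 library per group, no difference below has a replicate check, no test between the conditions was possible, and each interval is an exact 95% Clopper-Pearson interval of the read counts, which covers counting error only and compares these libraries.

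A cell that divides passes from G1 through DNA replication in S phase to mitosis. D-type cyclins with CDK4 and CDK6, then E-type cyclins with CDK2, inactivate the pocket proteins (Rb and its relatives) and so release E2F factors, which switch on replication genes, and the MuvB complex with B-Myb and FOXM1 switches on mitotic genes later. CDK inhibitors of the Ink4 and Cip/Kip families hold this path back. ESCs are known for a short G1 with high cyclin E and little Ink4 protein, whereas neurons have left the cycle. In bulk RNA, fewer cells of a type and less RNA per cell cannot be told apart.

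The libraries held 50529171 reads (E14) and 49030281 reads (E14-Sox2TA/WT) over all genes. Among the 11578 genes that reached a TPM of 10 in either library, the median log2 ratio of E14-Sox2TA/WT over E14 (1 added to each TPM) was -0.18, and 41.0% of genes were higher. On the FPKM scale the same median was 0.01. Transcripts of 13 mitochondrial genes took 4.99% of TPM in E14 and 9.22% in E14-Sox2TA/WT. The tissue label was checked on marker genes. Pluripotent cell markers were higher in 10 of 10 cases, with a summed TPM of 85.8 in E14 and 1960 in E14-Sox2TA/WT, led by Dppa5a. Neuron markers were lower in 10 of 10, from 3121 to 498, led by Tubb3, and neural progenitor markers in 8 of 8, from 4644 to 1894, led by Fabp7. Macrophage markers were higher in 8 of 8, from 806 to 1434, led by Lyz2, and skeletal muscle markers lower in 8 of 8, from 378 to 195, led by Mylpf. Cartilage markers stood at 137 and 123, led by Col2a1, with Matn1 at 0 reads in E14, and erythroid markers, led by Hbb-bs, at 392 in both. The part that these shifts play in the results below was not tested.

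Most replication genes and most mitotic genes were at a higher level in the E14-Sox2TA/WT teratoma, while 2 of 3 D-cyclins and 2 of 3 CDK inhibitors were lower. Over all genes that reached a TPM of 10, as all 40 did, 41.0% were higher. The 2 of 3 lower are thus near the share of all genes. Of the 40 genes, 31 were higher (median log2 ratio 0.47). A fold above 2, with a TPM of 10 reached in either library, was met by 5 genes on the higher side (Gmnn, Ccne2, Mcm10, Bub1 and Cdkn2a), beside 10.8% of all genes, and by 2 on the lower side (Mki67 and Cdkn2c), beside 18.7%. At a fold above 1.5, 15 genes were higher, beside 18.2% of all genes, and 4 were lower, beside 32.3%. At 2-fold the 5 of 40 were thus near the share of all genes, while the 15 of 40 past 1.5-fold lay above it and the members past either limit on the lower side lay below. On the FPKM scale 9 members passed 2-fold on the higher side and 2 on the lower, and the split over all genes was 1583 higher and 1655 lower in place of 1253 and 2167.

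**Figure D1:**
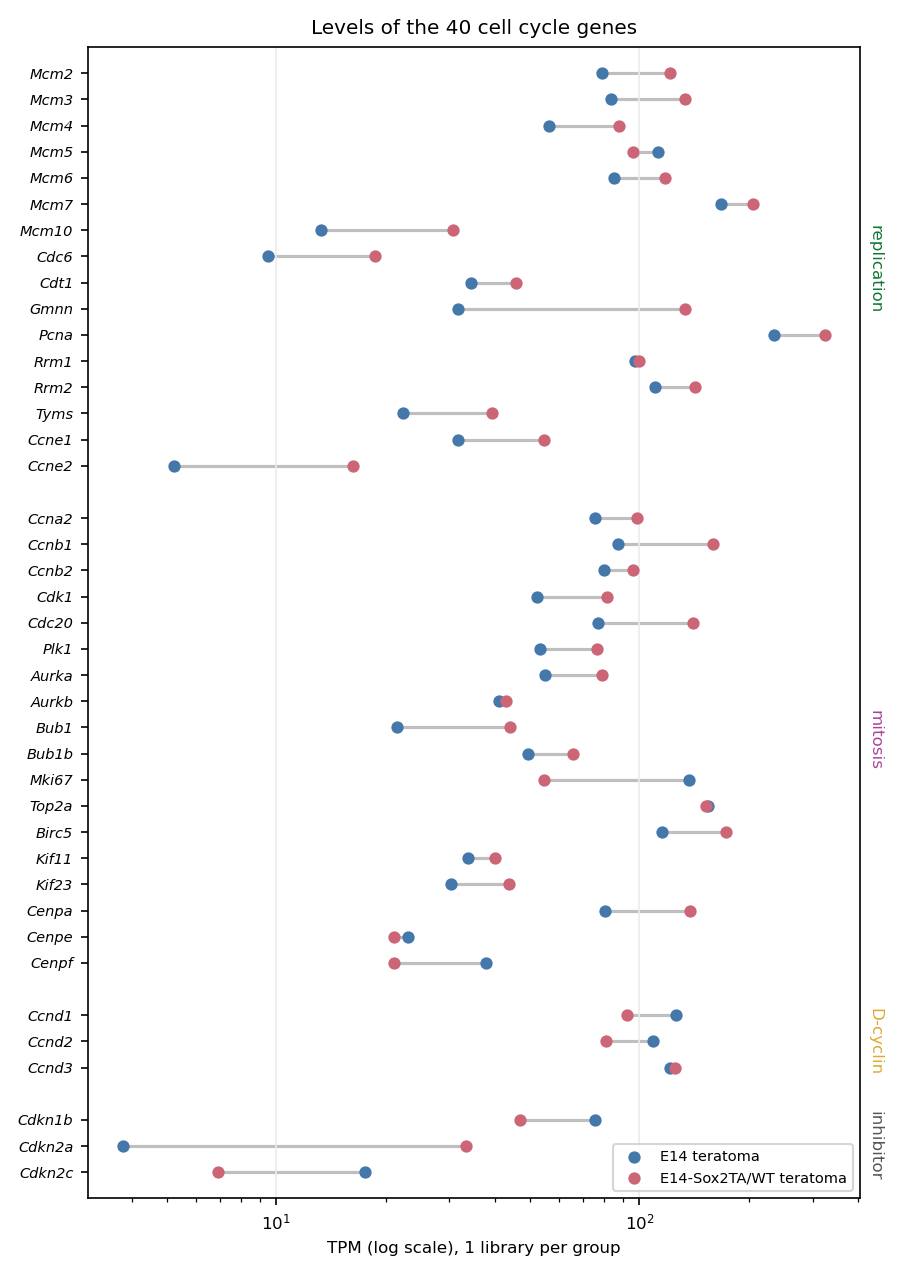
TPM (log axis) of each of the 40 genes in the E14 (blue) and the E14-Sox2TA/WT (red) teratoma library, 1 point per library, grouped by role. Red lies to the right of blue for 15 of 16 replication genes and 14 of 18 mitosis genes, and to the left for Mcm5, Mki67, Cenpf, Ccnd1, Cdkn1b and Cdkn2c and also for Top2a, Cenpe and Ccnd2, which change side under other scalings.

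To show what these genes carry at their starts, promoter windows of 300 bases (250 before and 50 from the transcription start) were read from RefSeq on GRCm38.p6. They were found for 33 of the 40 genes, 37 windows in all. Aurkb, Ccna2, Ccnd1, Ccnd2, Ccne2, Gmnn and Mcm4 have no window here. Searched on both strands were TTTGAA and TTCGAA, the letters of the CHR element that MuvB reads, CCAAT, the box that NF-Y reads, and TTTCCCGC, TTTGGCGC, TTTCGCGC and TTTGCCGC, forms of the E2F site. The 6 windows below were chosen as examples of the contrasts in the data. Within the same helicase, Mcm6 was higher and Mcm5 slightly lower on the TPM scale. Bub1 was the mitotic gene furthest up and Mki67 the one furthest down. Cdkn2a was the gene with the largest ratio and has a pair of starts. Each is written in the direction of transcription, with every match to the searched letters in capitals.
Mcm6 (chr1:128359656-128359955, minus strand): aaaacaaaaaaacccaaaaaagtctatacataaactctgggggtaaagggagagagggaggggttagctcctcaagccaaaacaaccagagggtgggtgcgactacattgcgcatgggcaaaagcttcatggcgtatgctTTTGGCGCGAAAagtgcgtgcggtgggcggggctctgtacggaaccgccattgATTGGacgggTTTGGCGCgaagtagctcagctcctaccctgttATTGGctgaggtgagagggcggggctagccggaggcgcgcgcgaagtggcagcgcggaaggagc
Mcm5 (chr8:75109259-75109558, plus strand): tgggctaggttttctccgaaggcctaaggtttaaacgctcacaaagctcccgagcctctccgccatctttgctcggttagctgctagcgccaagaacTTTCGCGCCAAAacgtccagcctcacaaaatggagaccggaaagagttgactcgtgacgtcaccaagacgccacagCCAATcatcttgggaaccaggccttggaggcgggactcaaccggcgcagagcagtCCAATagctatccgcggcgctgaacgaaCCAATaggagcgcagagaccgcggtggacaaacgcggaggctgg
Bub1 (chr2:127831810-127832109, minus strand): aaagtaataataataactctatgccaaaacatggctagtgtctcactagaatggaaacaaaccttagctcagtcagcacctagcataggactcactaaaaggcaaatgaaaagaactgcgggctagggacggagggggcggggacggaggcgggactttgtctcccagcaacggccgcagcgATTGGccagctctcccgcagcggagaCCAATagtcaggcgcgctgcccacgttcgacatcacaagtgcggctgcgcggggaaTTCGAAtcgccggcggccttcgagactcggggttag
Mki67 (chr7:135716330-135716629, minus strand): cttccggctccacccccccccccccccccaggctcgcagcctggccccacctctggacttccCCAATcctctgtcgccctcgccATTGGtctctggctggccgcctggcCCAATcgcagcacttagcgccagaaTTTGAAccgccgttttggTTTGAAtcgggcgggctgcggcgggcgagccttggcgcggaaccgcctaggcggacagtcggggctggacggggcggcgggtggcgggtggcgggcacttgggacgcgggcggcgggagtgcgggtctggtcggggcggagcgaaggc
Cdkn2a, upstream start (chr4:89294570-89294869, minus strand): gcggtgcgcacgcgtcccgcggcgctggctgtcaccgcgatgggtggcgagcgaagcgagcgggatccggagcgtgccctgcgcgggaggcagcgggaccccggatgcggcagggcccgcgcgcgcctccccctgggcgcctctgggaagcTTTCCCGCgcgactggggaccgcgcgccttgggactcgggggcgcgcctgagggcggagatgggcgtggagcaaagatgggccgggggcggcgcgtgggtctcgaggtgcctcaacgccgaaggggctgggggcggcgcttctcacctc
Cdkn2a, downstream start (chr4:89282143-89282442, minus strand): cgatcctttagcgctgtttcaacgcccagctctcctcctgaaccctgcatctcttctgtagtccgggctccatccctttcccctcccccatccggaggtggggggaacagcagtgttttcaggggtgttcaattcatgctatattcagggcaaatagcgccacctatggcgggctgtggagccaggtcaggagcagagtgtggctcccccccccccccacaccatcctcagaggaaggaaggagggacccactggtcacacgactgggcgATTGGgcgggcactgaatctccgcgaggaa
Each Cdkn2a window holds 1 match and the other windows hold several. In Mcm5 and in Mcm6, a pair of E2F forms on opposite strands overlap and read as 1 longer run.

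The searched letters were then counted by role. The CHR letters were in windows of 13 of 16 mitosis genes and of 2 of 13 replication genes, against 21.7% of the 27025 genes with a window of this length in the RefSeq table. CCAAT was in 15 of 16 mitosis genes and 9 of 13 replication genes, against 41.1% of all genes with a window. Both together in 1 window occurred for 13 of 16 mitosis genes, against 8.61% of all genes with a window. The E2F forms were in 6 of 13 replication genes and in 1 mitosis gene, Cdk1, against 2.6% of all genes with a window. A match is a description and not a binding site. Mki67, lower in the E14-Sox2TA/WT library, and Bub1, higher there, both hold CHR and CCAAT letters, and Mcm5 and Mcm6 both hold E2F and CCAAT letters.

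Among the 16 replication genes, 15 were at a higher level in the E14-Sox2TA/WT teratoma (median log2 ratio 0.62), and their summed TPM was 1175 in E14 and 1666 in E14-Sox2TA/WT. Past 2-fold were 3 of them, beside 10.8% of all genes, and past 1.5-fold 9, beside 18.2%, all on the higher side. The MCM2-7 proteins form the ring that unwinds DNA at the fork. Their summed TPM was 585 in E14 and 762 in E14-Sox2TA/WT, and 5 of 6 subunits were higher. Mcm3 stood at 83.5 and 134 (1.60-fold higher, 1.55 to 1.65), and Mcm2 at 79.1 and 121 (1.53-fold, 1.49 to 1.58). Mcm4 went from 56.5 to 87.9 (1.56-fold) and Mcm6 from 84.9 to 118 (1.39-fold). Mcm7, the most abundant of the ring, differed least among the 5, at 168 and 205 (1.22-fold). Mcm5 went the other way on the TPM scale, from 113 to 96.0, which is 1.17-fold lower (1.14 to 1.21). On the FPKM scale its log2 ratio was only -0.03. The ring is built with 1 copy of each subunit, and the highest of the 6 mRNAs was 2.97 times the lowest in E14 and 2.33 times in E14-Sox2TA/WT.

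The 4 genes that control the loading and the start of that ring were higher, by 1.33-fold to 4.20-fold. Gmnn encodes geminin, which binds and blocks the loader Cdt1 so that DNA is copied once per cycle. Gmnn had 748 reads in E14 and 3500 in E14-Sox2TA/WT, a TPM of 31.7 and 133 (4.20-fold higher, 3.88 to 4.55). Cdt1 itself stood at 34.4 and 45.7 (1.33-fold higher). Transcripts of the inhibitor were thus 0.922 times those of the loader in E14 and 2.92 times in E14-Sox2TA/WT. Cdc6, the other loading factor, stood just under the 2-fold limit, at 9.51 and 18.7 (1.97-fold, 1.83 to 2.12). Mcm10, which helps to start the loaded helicase, went from 13.3 to 30.7 (2.30-fold, 2.16 to 2.46).

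The E-type cyclins, partners of CDK2 at the entry to S phase, were both higher. Ccne2 had 376 reads in E14 and 1295 in E14-Sox2TA/WT, a TPM of 5.24 and 16.2 (3.10-fold higher, 2.76 to 3.48). Its gene shares 5622 bases with Ints8, which stood at 23.9 and 38.8, and whether the reads were counted by strand is not stated. Ccne1 stood at 31.6 and 54.6 (1.73-fold higher, 1.62 to 1.84).

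The enzymes that supply nucleotides ranged from 1.02-fold to 1.76-fold higher on the TPM scale. Tyms, which makes thymidylate, stood at 22.3 and 39.3 (1.76-fold higher, 1.67 to 1.85). Rrm2, the regulated subunit of ribonucleotide reductase, stood at 110 and 142 (1.29-fold). Its partner Rrm1 stood at 97.3 and 99.6, and its interval includes no difference (1.02-fold, 0.995 to 1.05). On the FPKM scale the log2 ratio of Rrm1 was 0.23. Pcna, the clamp that holds DNA polymerases, was the most abundant of the 40 genes in both libraries, at 234 and 324 (1.38-fold). Reads assigned to its processed copy Pcna-ps2 numbered 1494 in E14 and 4769 in E14-Sox2TA/WT, so part of the Pcna signal may have been split between the 2 rows.

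Of the 18 mitosis genes, 14 were at a higher level in the E14-Sox2TA/WT teratoma and 4 were lower. Their median log2 ratio was 0.46 and their summed TPM 1204 and 1528. Past 1.5-fold on the higher side were 5, Bub1, Ccnb1, Cdc20, Cenpa and Cdk1, beside 18.2% of all genes. On the lower side were 2, Mki67 and Cenpf, beside 32.3% of all genes. The engine of mitosis is CDK1 with cyclins A and B. Cdk1 stood at 52.2 and 81.5 (1.56-fold higher, 1.51 to 1.61). Ccnb1 stood at 87.5 and 160 (1.83-fold, 1.76 to 1.89), while Ccnb2 stood at 79.8 and 95.8 (1.20-fold, 1.14 to 1.26). The B-type cyclins were nearly level in the E14 library, with Ccnb1 at 1.10 times Ccnb2, and apart in the E14-Sox2TA/WT library, at 1.67 times. Ccna2 went from 75.4 to 98.4 (1.31-fold).

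Kinases and checkpoint genes ranged from 1.05-fold to just past 2-fold higher on the TPM scale. Bub1, a kinase of the spindle checkpoint, was the only mitosis gene past 2-fold on the higher side, at 21.5 and 44.1 (2.05-fold, 1.95 to 2.16), with an interval that reaches below 2. Its relative Bub1b stood at 49.4 and 65.8 (1.33-fold). Cdc20, the activator of the anaphase-promoting complex that this checkpoint restrains, stood at 76.7 and 140 (1.83-fold, 1.75 to 1.91). Plk1, from 53.2 to 76.2, and Aurka, from 55.1 to 79.0, were each 1.43-fold higher. Aurkb, the kinase of the chromosomal passenger complex, stood at 41.0 and 43.0, and its interval includes no difference (1.05-fold, 0.987 to 1.12). Its log2 ratio on the FPKM scale was 0.25. Birc5, the survivin subunit of the same complex, stood at 115 and 173 and on the TPM scale lay just under the 1.5-fold limit (interval 1.43 to 1.57). Its reads numbered 3063 and 5734, a ratio per library total of 1.93, which lies outside that interval.

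Motors and centromere proteins ran both ways. Cenpa, the histone that marks the centromere, stood at 80.5 and 138 (1.71-fold higher, 1.63 to 1.79). The motors Kif11, at 33.7 and 40.1 (1.19-fold), and Kif23, at 30.4 and 43.7 (1.44-fold), were higher as well. Cenpf, a large protein of the outer kinetochore, was lower, at 37.7 and 21.1 (1.78-fold lower, 1.73 to 1.84). Cenpe, a kinetochore motor, stood at 23.1 and 21.1 (1.09-fold lower, 1.05 to 1.14), but was higher on the FPKM scale, at a log2 ratio of 0.065.

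Mki67, which encodes the proliferation antigen Ki-67, went against most of its group. It had 32993 reads in E14 and 14764 in E14-Sox2TA/WT, a TPM of 137 and 54.7 (2.50-fold lower, 2.45 to 2.55). It was 2nd of the 18 mitosis genes by TPM in E14 and 12th in E14-Sox2TA/WT. For each Cdk1 transcript there were 2.62 of Mki67 in E14 and 0.671 in E14-Sox2TA/WT, and for each Ccnb1 transcript 1.56 and 0.342. Top2a, the topoisomerase that is likewise used to mark cycling cells, stood at 155 and 153, with an interval that includes no difference (1.02-fold lower, 0.995 to 1.03), and had a log2 ratio of 0.18 on the FPKM scale. The common markers of proliferation thus differed in direction, with Mki67 lower, Top2a within counting error and Pcna higher. The summed neuron, neural progenitor and skeletal muscle markers (3121 to 498, 4644 to 1894 and 378 to 195) went the way of Mki67. The pluripotent cell and macrophage markers (85.8 to 1960 and 806 to 1434) went the way of Pcna, and the part of these lists in either was not tested.

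**Figure D2:**
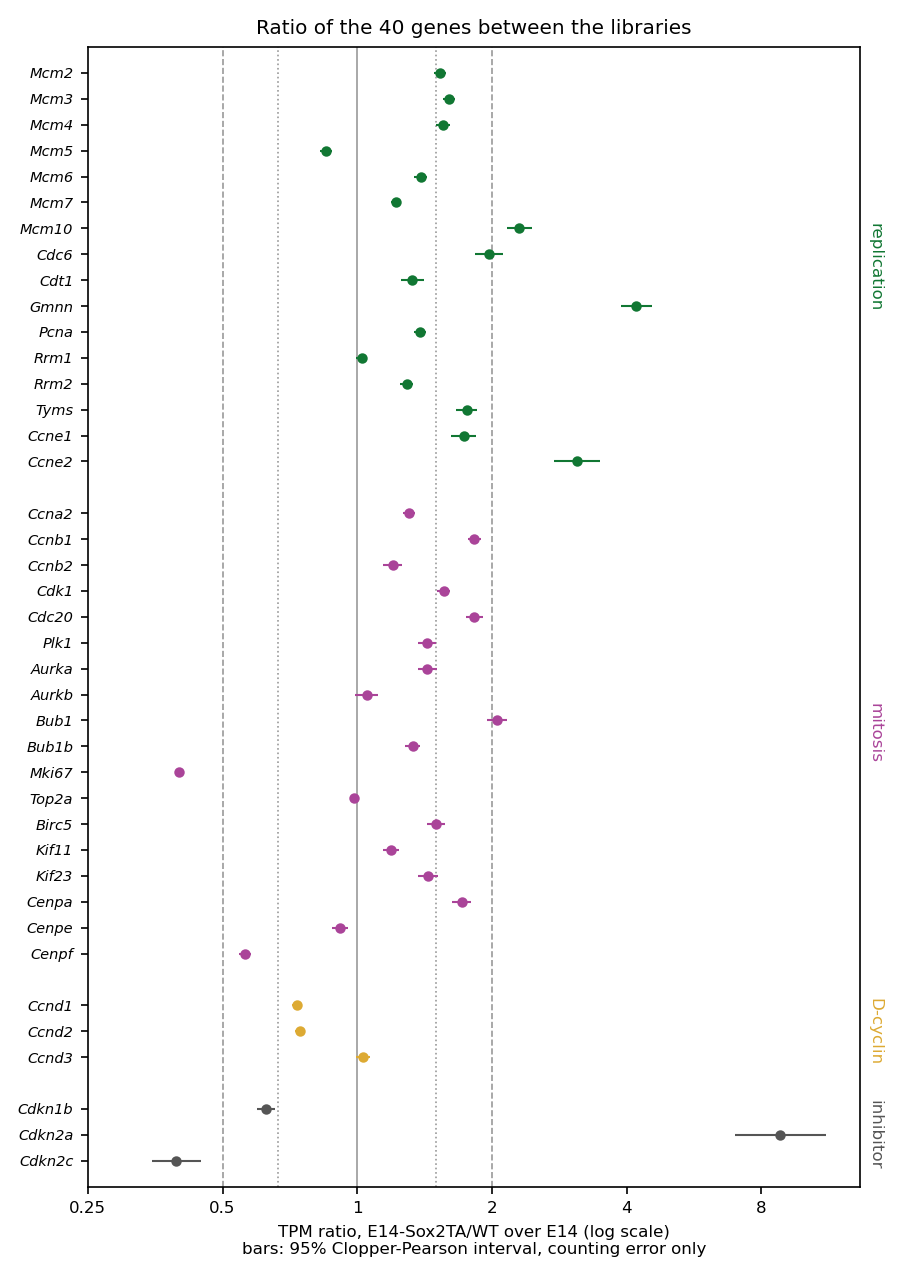
Ratio of TPM, E14-Sox2TA/WT over E14 (log axis), for each of the 40 genes, with 95% Clopper-Pearson bars of the read counts that cover counting error only. The dotted lines mark 1.5-fold and the dashed lines 2-fold; Gmnn, Ccne2, Mcm10, Bub1 and Cdkn2a lie past the upper dashed line and Mki67 and Cdkn2c past the lower.

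The longest transcripts were among the lowest members. Over all genes that reached a TPM of 10, the median log2 ratio was 0.28 for transcripts under 1000 nt, -0.02 from 1000 to 2000 nt, -0.40 from 4000 to 6000 nt and -0.73 above 8000 nt. Mki67 (10061 nt) and Cenpf (11130 nt) are in the last range, and Cenpe (7910 nt) and Ccnd2 (6330 nt) are the other members over 6000 nt. After subtraction of the ratio of all genes of like length, Mki67 remained lower, at a log2 ratio of -0.68 in place of -1.31, which no longer passes 2-fold, and Cenpf stood at -0.14 in place of -0.81, which no longer passes 1.5-fold. Cenpe turned from -0.12 to 0.41, Ccnd2 from -0.42 to 0.022 and Top2a (5221 nt) from -0.02 to 0.35. Short members shrank instead, Gmnn (963 nt) from 2.04 to 1.81 and Cdkn2a from 2.84 to 2.59. On this scale 34 of the 40 genes were higher, and Mcm5 stood at -0.04. The median of all genes that reached a TPM of 1 was -0.002 on the same scale. What sets the relation with length was not tested.

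**Figure D3:**
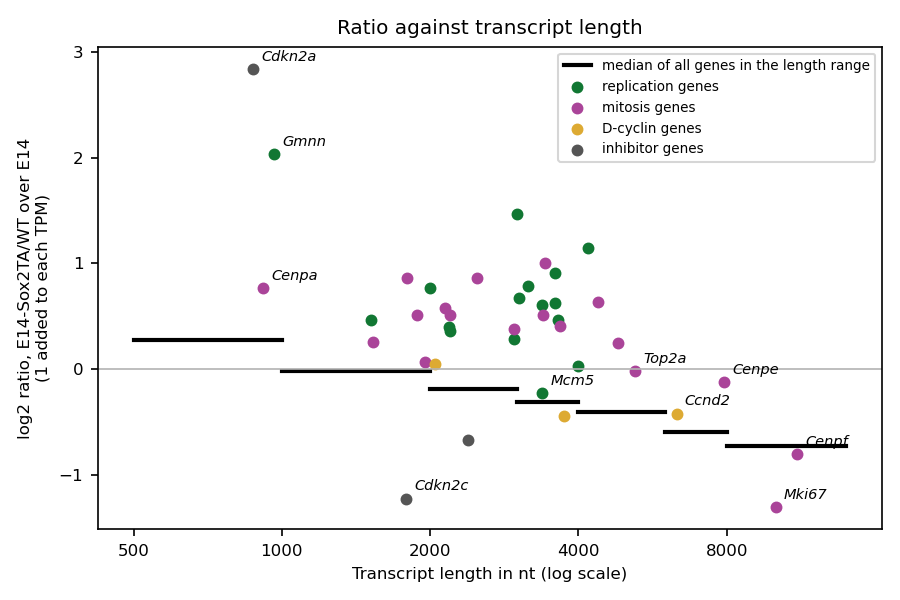
Log2 ratio of TPM (E14-Sox2TA/WT over E14, 1 added to each TPM) against transcript length in nt (log axis) for the 40 genes, coloured by role, with black bars for the median of all genes that reached a TPM of 10 in each length range. The bars step down from 0.28 to -0.73; most replication and mitosis genes lie above the bar of their length, while Mki67 and Cenpf lie below it.

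The D-type cyclins, which couple growth signals to CDK4 and CDK6, did not share the direction of the E-type. Ccnd1 stood at 126 in E14 and 92.6 in E14-Sox2TA/WT (1.36-fold lower, 1.33 to 1.40). Ccnd2 stood at 109 and 80.8 (1.34-fold lower, 1.31 to 1.38), a direction lost with the length correction. Ccnd3 stood at 121 and 125, and its interval includes no difference (1.03-fold higher, 0.996 to 1.07). Its log2 ratio on the FPKM scale was 0.24. None of the 3 passed 1.5-fold, and the median log2 ratio was -0.42, which became 0.022 with the length correction. Summed over each family, D-type transcripts went from 356 to 299 and E-type transcripts from 36.9 to 70.9, so that their ratio was 9.67 in E14 and 4.21 in E14-Sox2TA/WT. In the same libraries Cdk4 stood at 740 and 795 (1.08-fold higher, 1.06 to 1.09).

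The inhibitors held both the largest ratio and 1 of the 2 members past 2-fold on the lower side. Cdkn2a encodes the Ink4 protein p16Ink4a from its downstream start and p19Arf, which acts on p53, from its upstream start, and the table does not separate them. It had 82 reads in E14 and 808 in E14-Sox2TA/WT, a TPM of 3.79 and 33.3 (8.79-fold higher, 7.0 to 11.2). Of its windows, the upstream one holds an E2F form and no CCAAT, and the downstream one CCAAT and no E2F form. Cdkn2c, the Ink4 protein p18Ink4c, went from 818 reads to 352, a TPM of 17.5 and 6.92 (2.54-fold lower, 2.23 to 2.88). Cdkn2c transcripts were 4.63 times those of Cdkn2a in E14 and 0.208 times in E14-Sox2TA/WT. Cdkn1b, the Cip/Kip protein p27Kip1 that rises as many cells leave the cycle, stood at 75.3 and 47.0 (1.60-fold lower, 1.53 to 1.68). On the FPKM scale its log2 ratio was -0.46, short of 1.5-fold.

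The other 4 CDK inhibitor genes, from the wider lists, were also split, 2 higher and 2 lower. Cdkn2b, the Ink4 gene 11669 bases from Cdkn2a on chromosome 4, had 122 and 622 reads, a TPM of 3.62 and 16.6 (4.59-fold higher, 3.77 to 5.62). Cdkn1a, which encodes the p53 target p21, stood at 52.9 and 134 (2.53-fold higher, 2.42 to 2.65). Cdkn1c, the imprinted inhibitor p57Kip2, stood at 149 and 25.2 (5.90-fold lower, 5.56 to 6.27), and Cdkn2d at 63.0 and 30.6. The summed TPM of Cdkn2a, Cdkn2b, Cdkn2c and Cdkn2d was 87.96 in E14 and 87.41 in E14-Sox2TA/WT, level on this scale while its members changed places. TPM was 2.33 times FPKM in E14 and 2.03 times in E14-Sox2TA/WT, so the sum is not level in FPKM. The Cdkn2a part may include p19Arf transcripts, which were not separated.

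The wider lists held 147 further cell cycle genes in 8 groups, of which 101 were higher (median log2 ratio 0.24). Of the 140 that reached a TPM of 10, 17 were past 2-fold on the higher side, near the 10.8% of all genes, and 3 on the lower, beside 18.7%. Over all 18558 genes that reached a TPM of 1, 47.5% were higher and the median was -0.06. Origin and fork proteins were higher in 27 of 35 cases (median 0.27). Orc1, the large subunit of the origin recognition complex, stood at 6.21 and 19.4 (3.13-fold higher, 2.83 to 3.48), and Orc5 at 29.3 and 67.5 (2.30-fold). Past 2-fold on the higher side were 5 of the 35, beside the 10.8% of all genes. The others of these 5, named after their values were seen, were Rfc4, Rfc5 and Pole2. The most abundant genes of the list, Rfc2 and Rpa3, stood at 117 and 135 and at 75.2 and 129.

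Of the E2F, pocket and MuvB-FOXM1 regulators, which act on such promoters, 8 of 19 were higher, with a median of -0.19. Over all genes that reached a TPM of 1, as these 19 did, 47.5% were higher and the median was -0.06. Over all genes that reached a TPM of 10, as 16 of the 19 did, the values were 41.0% and -0.18. The share of the list was near both. Mybl2, the B-Myb partner of MuvB, stood at 14.5 and 54.4 (3.74-fold higher, 3.52 to 3.98). Rbl2, the pocket protein p130 of resting cells, stood at 27.0 and 7.62 (3.54-fold lower, 3.30 to 3.80). The most abundant of the list, Tfdp1 and E2f4, stood at 100 and 121 and at 71.6 and 62.7. Among other cyclins, CDKs and their regulators, 9 of 11 were higher (median 0.25). The CDK-binding proteins Cks1b, at 161 and 331 (2.05-fold), and Cks2, at 145 and 317 (2.19-fold), were the 2 past 2-fold. They were 2 of the 10 that reached a TPM of 10, beside 10.8% of all genes.

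Structural genes of mitosis were mostly higher as well. Kinetochore and checkpoint genes were higher in 23 of 29 cases (median 0.45), and 6 of the 27 that reached a TPM of 10 were past 2-fold on the higher side, beside 10.8% of all genes. Spc25, of the Ndc80 complex, stood at 43.2 and 119 (2.76-fold, 2.61 to 2.93), and Cenpk at 6.31 and 19.2 (3.04-fold, 2.58 to 3.59). Zwint, the most abundant of the list, went the other way, at 437 and 244 (1.79-fold lower, 1.75 to 1.84), and Bub3 stood at 143 and 146. Spindle motors and cytokinesis genes were higher in 17 of 18 cases (median 0.38). Of the 17 that reached a TPM of 10, none was past 2-fold, beside 10.8% of all genes on the higher side. Past 1.5-fold on the higher side were 7 of these 17, beside 18.2% of all genes. Hmmr stood at 16.8 and 31.1, Anln at 19.2 and 35.1, Racgap1 at 69.0 and 105 and Kif22 at 71.1 and 83.6. Condensin and cohesin genes were higher in 11 of 15 (median 0.31), led by Ncapg, at 18.6 and 45.3 (2.43-fold, 2.30 to 2.57). The cohesin gene Smc1a stood at 135 and 71.5 (1.89-fold lower), Rad21 at 165 and 231, and Ncaph2 at 116 and 134.

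The anaphase-promoting complex, the ubiquitin ligase that ends mitosis, had the smallest share of higher genes among the 8 lists, 4 of 16 (median -0.23). Its E2 enzymes Ube2s, at 286 and 440 (1.54-fold higher), and Ube2c, at 120 and 218 (1.82-fold higher), went against the rest. Without these 2, chosen after their values were seen, 2 of 14 were higher and the median was -0.30. Over all genes that reached a TPM of 10, 41.0% were higher and the median was -0.18. Anapc2 stood at 103 and 53.2 (1.93-fold lower), Anapc1 at 60.3 and 32.4 (1.86-fold lower) and Anapc5 at 264 and 171 (1.55-fold lower). Cdc20, the member that activates this complex, was 1.83-fold higher in the same libraries.

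**Figure D4:**
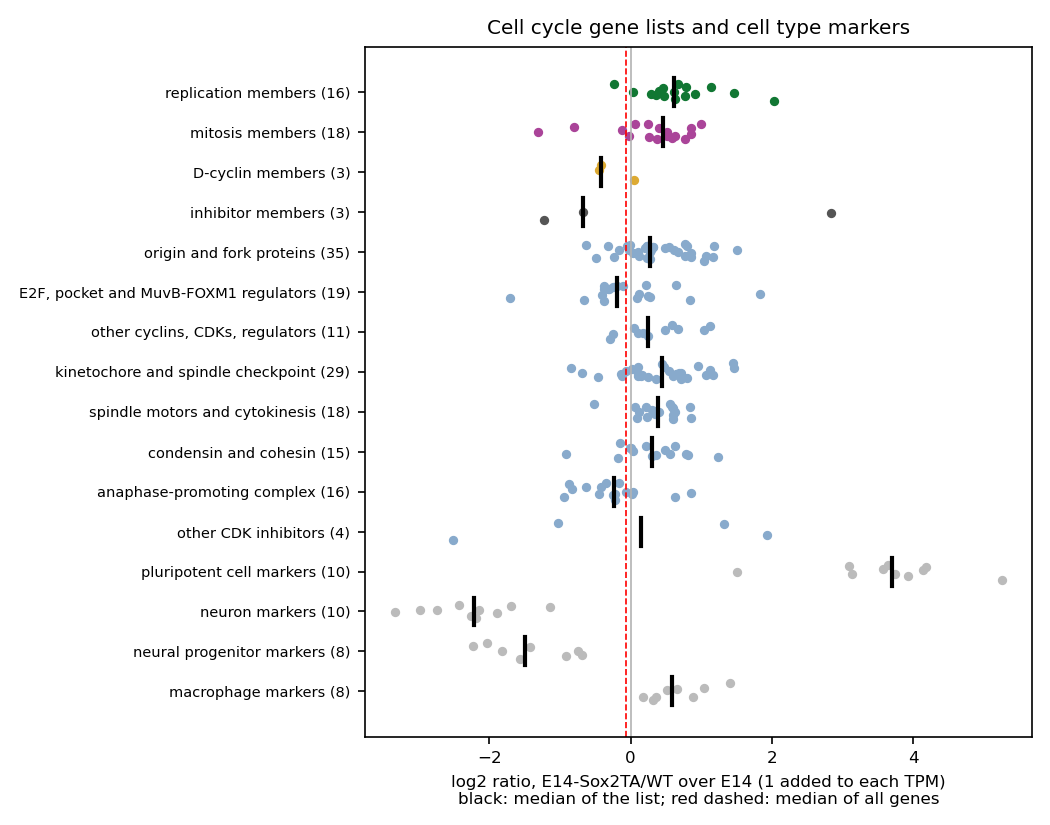
Log2 ratio of TPM (E14-Sox2TA/WT over E14, 1 added to each TPM) of each gene, 1 point per gene, in the 4 groups of members, the 8 wider cell cycle lists and 4 of the 7 marker lists, with the number of genes in brackets. Black bars mark list medians and the red dashed line the median of all genes, -0.06; replication members, at 0.62, have the highest median of the cell cycle lists, and pluripotent cell markers lie to the right and neuron markers to the left of most cell cycle genes.

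The same ratios were read by chromosome. Chromosomes 8, 13 and 15, looked at because earlier results of these data had set them apart, had all-gene medians of -0.48, 0.20 and 0.35, against -0.06 on all other chromosomes. On chromosome 8, where Mcm5 and Cdt1 lie, 6 of 15 members and wider genes were higher, among the 9 lower ones Rbl2 and E2f4. On chromosome 13, where Gmnn and Ccnb1 lie, 7 of 7 were higher, and on chromosome 15, which holds no member, 5 of 5. On the other chromosomes 114 of 160 were higher, and 28 of 36 members. Without chromosomes 8, 13, 15 and Y the median was 0.63 for the replication members and 0.41 for the mitosis members. The part of the chromosome in the single genes was not tested.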

How the data were processed

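Polyadenylated RNA was sequenced as 1 E14 and 1 E14-Sox2TA/WT teratoma library on an Illumina NovaSeq 6000. In 1 table, the authors deposited each gene's read count, FPKM and TPM in both libraries. The submitters' processing notes list bcl2fastq 2.20.0, Trimmomatic, HISAT2 2.1.0, StringTie 2.1.3b and the builds mm10 and hg19, without a role for each. Whether reads were counted by strand is not given in the sources used here. Every value column belonged to 1 of the 2 libraries.

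From the deposited TPM, the ratio of E14-Sox2TA/WT over E14 was computed per gene, and log2 ratios with 1 added to each TPM. Genes were called at a fold above 2 where either library reached a TPM of 10, and list medians used genes reaching a TPM of 1. Read counts gave exact 95% Clopper-Pearson intervals, scaled to TPM. Lengths are medians of GENCODE transcripts, and the length correction subtracts a lowess curve (fraction 0.3). Names and promoter windows came from RefSeq on GRCm38.p6, where 45679 of 45777 identifiers matched. The members and lists were chosen with earlier results of these data known. Named outside the members were, per wider list, the 2 genes of highest mean TPM and the 2 of largest log2 ratio, and per marker list the top gene. Other genes named were chosen after their values were seen. Scripts were tested on simulated data with 200 changed genes. Alternatives were FPKM, library totals, TMM, median of ratios, other filters, folds and pseudocounts, and chromosomes left out. The tools were R 4.3.3 with edgeR 4.0.16 (TMM factors only) and Python 3.11.15 with scipy 1.17.1, statsmodels 0.14.6, numpy 2.4.6, pandas 2.3.3 and matplotlib 3.10.9.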

Additional observations from a re-analysis of the deposited data

How the results depend on the processing

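No paired analysis was possible because each group holds 1 library, and leaving out a library was not possible either. The main results had 74 alternative values, of which 61 lay inside the range used and 13 outside. For a median this range is an order-statistic interval over the genes of the list (lowest to highest under 6 genes), a spread over genes, and for a count 1.5 times. Some of the 61 could not have differed. All 40 members reached a TPM of 10, so other TPM filters left their medians unchanged. No D-cyclin or inhibitor member lies on a chromosome left out. The 61 are therefore no measure of how stable the results are. The median log2 ratio of the mitosis members was 0.64 with FPKM and 0.66 with library totals, and that of all 40 members 0.66 and 0.67. The median of the D-cyclins turned to 0.022 with the length correction. Genes called higher were 2109 at a fold above 1.5, 3585 with a TPM of at least 1 and 9156 with no filter on TPM, and genes called lower were 3742, 3508 and 6015. Members called higher were 9 with FPKM and 9 with library totals, scalings of this count being alternatives chosen after seeing the data, and the additions were Ccnb1, Cdc20, Cdc6 and Tyms. With TMM or median of ratios they were 6, the addition being Cdc6. Mki67 and Cdkn2c were called lower under all 4 scalings, but with the length correction Mki67 stood at -0.68, short of 2-fold. Of all 11578 genes, 1583 were called higher with FPKM, 1578 with library totals, 1348 with TMM and 1356 with median of ratios. Those called lower were 1655, 1634, 1967 and 1952 in the same order, so the all-gene calls moved with the scaling too. Of 280 alternative values of single members, 183 lay outside the counting interval, and 10 changed sign, all in Top2a, Cenpe and Ccnd2. The cause was not tested. Depth limits Cdkn2a most, with 82 reads in the E14 library.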
